A study of Mus musculus with 8 samples.

Results

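Transcripts of 38 genes of glucose use were measured in neutrophils that had infiltrated mouse mammary tumours. The genes were chosen by name and cover glucose uptake, the steps of glycolysis by isoform, lactate production and export, the pyruvate dehydrogenase complex with its kinases, and the pentose phosphate pathway. They are 38 of the 54532 genes of the count table, in which the name Aldoa stands at 2 gene IDs. RNA sequencing gave 8 libraries, 4 of ICAM1high and 4 of ICAM1low neutrophils. ICAM1 (CD54) is a surface ligand of the beta2 integrins of leukocytes. Both fractions came from untreated Balb/c mice that carried tumours of 2208L, a mouse mammary tumour line placed in the mammary fat pad, and both were flow sorted from dissociated tumours of 1 cm diameter. The sources used here do not give the sort markers besides ICAM1, the number of mice, or their age and sex.

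Glucose enters neutrophils through facilitative transporters, is trapped by hexokinase, and is split and oxidised to pyruvate by the enzymes of glycolysis. Lactate dehydrogenase turns pyruvate into lactate, which leaves the cell with a proton through monocarboxylate transporters, or pyruvate enters the mitochondria, where pyruvate dehydrogenase turns it into acetyl-CoA. The pentose phosphate pathway branches off at glucose 6-phosphate and yields NADPH, which the neutrophil oxidase uses to make superoxide. Neutrophils are known for few mitochondria and a strong reliance on glycolysis for ATP.

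Most genes of glucose uptake, glycolysis and lactate export were lower in ICAM1high than in ICAM1low neutrophils, while the pyruvate dehydrogenase genes were not called. In edgeR's quasi-likelihood test with TMM scaling, 23 of the 37 members tested were lower at an adjusted p under 0.05, which is 62.2%, beside 19.6% of all 14051 genes tested. Higher transcripts were found for 3 members, or 8.11%, beside 22.6% of all genes, and the other 11 were not called, so that 26 of 37 were called in either direction, beside 42.1% of all genes. At least 2-fold lower were 18 members, or 48.6%, beside 12.1% of all genes. The median log2 fold change, ICAM1high over ICAM1low, was -0.93 for the members and 0.08 for all genes. The groups did not overlap for 20 lower members, beside 18.0% of all genes, and for 4 higher ones, beside 23.4%. Pdk4 was not tested, with 3, 0, 2 and 0 counts in the ICAM1high libraries and 3, 0, 0 and 0 counts in the ICAM1low libraries, and the second Aldoa ID held 34 counts in all.

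Median-ratio (RLE) and upper-quartile scaling gave the same counts as TMM, 3 higher and 23 lower members, and library totals gave others. TMM assumes that most genes do not differ. RLE and upper-quartile scaling likewise set typical genes equal between libraries, so their counts cannot decide between TMM and library totals. The TMM factors were 1.18 to 1.34 in ICAM1high and 0.705 to 0.865 in ICAM1low libraries, so the scaling goes with the contrast. With library totals in place of TMM the log2 fold changes of all tested members moved up. The median over all genes rose by 0.68, to 0.76. Then 13 members were lower, or 35.1%, beside 5.97% of all genes, and 9 were higher, or 24.3%, beside 48.5% of all genes. The 13 lower members had also been lower with TMM, and the 3 higher ones with TMM, Eno2, Ldhb and Pfkfb2, were higher with both. Of the other lower members, 10 were not called with library totals (Gpi1, Aldoa, Tpi1, Pgk1, Pgam1, Eno1, Eno3, Ldha, G6pdx and Pgd). Levels below are CPM (each gene's counts scaled to a common library size) on TMM-scaled library sizes, in the order of replicates 1 to 4. Fold changes are log2 with their SE.

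**Figure D1:**
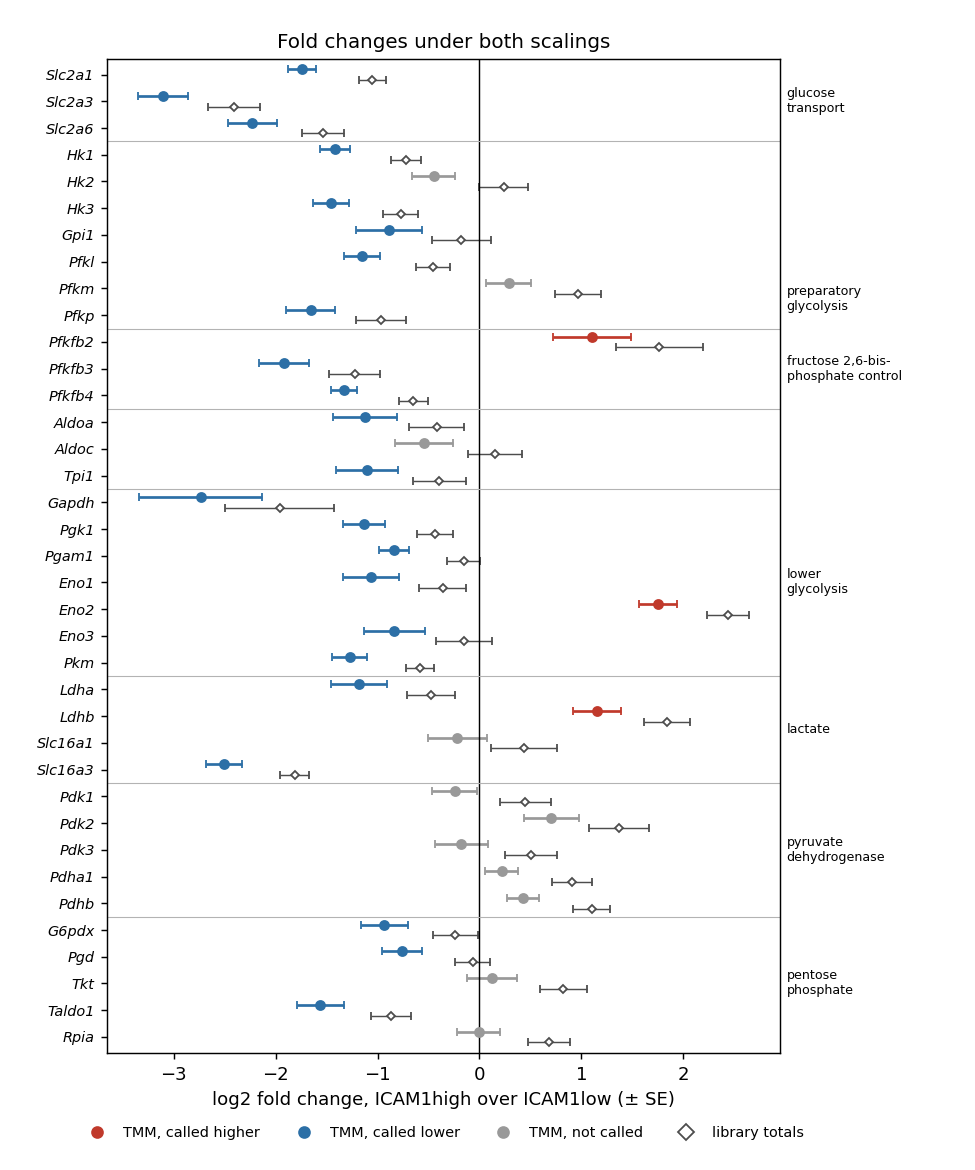
Log2 fold changes of the 37 tested members, ICAM1high over ICAM1low, with bars of 1 SE, from edgeR with TMM scaling (filled points, coloured by call) and with library totals (open diamonds). The open diamonds lie to the right of the filled points, and the 3 transporters, Slc16a3 and Pfkfb3 stay left of 0 in both, while Hk2, Aldoc, Slc16a1, Pdk1, Pdk3 and Rpia change sign.

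Total counts were 10.3 to 20.6 M in ICAM1high libraries and 16.8 to 22.8 M in ICAM1low libraries, and the sorted transcript Icam1 was higher in ICAM1high (log2 fold change 0.78 ± 0.20, adjusted p = 0.0105). The fractions separated on the first principal component (65.1% of the variance), and ICAM1high replicate 1 and ICAM1low replicate 4 stood apart from their groups on the second (20.8%). Of 12 neutrophil markers, 12 were lower in ICAM1high (19.6% of all genes were). Their summed CPM was 10480 to 14560 in ICAM1high libraries against 44660 to 87530 in ICAM1low libraries. Of 12 macrophage and monocyte markers, 10 were higher (22.6% of all genes were) and 2 were not called. Their sums were 12460 to 22020 in ICAM1high against 1333 to 2106 in ICAM1low. Of 6 tested markers of mammary epithelial tumour cells, 4 were lower, with sums of 119 to 176 in ICAM1high against 283 to 487 in ICAM1low, and Krt5 was at 0 in 6 of the 8 libraries. Each neutrophil and each macrophage or monocyte marker was detected in all 8 libraries. Sums of fibroblast, endothelial, lymphocyte or erythroid markers were at most 108 CPM in any library. The part of these cell types in the results on glucose genes was not tested. In sorted bulk samples fewer cells of a type and less RNA per cell cannot be told apart.

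Promoter sequence is shown for 3 of the lower members (2 glucose transporters and the lactate exporter Slc16a3) and for the 3 higher members, all of which kept their calls with both scalings. The 3 lower ones were chosen among 13 such members, with their matches known, as transporters at the entry and the exit of the pathway. Of the 3 windows of Pfkfb2 the one with the most matches is shown. The 250 bases before the transcription start, from RefSeq on GRCm38.p6, are given 5′ to 3′ on the gene's strand. Capitals mark ACGTG or GCGTG on either strand (CACGT and CACGC as printed), the core letters of the hypoxia response element bound by HIF, a factor known to drive many glycolytic genes.
Slc2a1, chr4:119108495-119108744, plus strand: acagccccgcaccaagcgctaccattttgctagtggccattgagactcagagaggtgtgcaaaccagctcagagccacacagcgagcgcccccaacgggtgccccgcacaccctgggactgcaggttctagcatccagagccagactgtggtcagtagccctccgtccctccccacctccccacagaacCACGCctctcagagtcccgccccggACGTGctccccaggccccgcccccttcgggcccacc
Slc2a6, chr2:27027999-27028248, minus strand: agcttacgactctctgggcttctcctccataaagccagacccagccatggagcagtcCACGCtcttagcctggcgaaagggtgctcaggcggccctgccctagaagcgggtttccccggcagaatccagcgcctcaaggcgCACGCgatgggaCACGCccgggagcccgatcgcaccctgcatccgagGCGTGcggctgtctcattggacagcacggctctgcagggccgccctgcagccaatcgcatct
Slc16a3, chr11:120948817-120949066, plus strand: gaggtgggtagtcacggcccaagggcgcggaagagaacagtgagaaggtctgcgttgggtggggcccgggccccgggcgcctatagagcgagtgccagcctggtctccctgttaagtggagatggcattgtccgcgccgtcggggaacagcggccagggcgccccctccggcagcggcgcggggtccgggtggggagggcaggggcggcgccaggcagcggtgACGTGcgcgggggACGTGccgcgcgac
Eno2, chr6:124769674-124769923, minus strand: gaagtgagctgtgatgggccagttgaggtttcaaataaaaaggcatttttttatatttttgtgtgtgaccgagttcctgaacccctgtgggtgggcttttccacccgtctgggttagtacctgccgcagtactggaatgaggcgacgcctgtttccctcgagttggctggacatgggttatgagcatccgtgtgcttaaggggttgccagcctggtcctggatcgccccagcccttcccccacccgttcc
Ldhb, chr6:142507958-142508207, minus strand: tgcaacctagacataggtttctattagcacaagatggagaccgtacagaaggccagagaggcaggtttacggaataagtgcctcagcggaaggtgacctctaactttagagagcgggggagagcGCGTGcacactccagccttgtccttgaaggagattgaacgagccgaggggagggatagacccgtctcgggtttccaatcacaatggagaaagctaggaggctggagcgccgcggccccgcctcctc
Pfkfb2, chr1:130715822-130716071, minus strand: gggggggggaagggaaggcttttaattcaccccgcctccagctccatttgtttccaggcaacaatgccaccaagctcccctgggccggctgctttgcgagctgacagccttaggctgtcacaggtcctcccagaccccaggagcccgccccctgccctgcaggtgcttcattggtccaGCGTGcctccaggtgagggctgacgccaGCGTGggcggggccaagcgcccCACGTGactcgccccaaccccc

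The Slc2a6 window held 4 matches, those of Slc2a1 and Slc16a3 2 each, that of Ldhb 1 and that of Eno2 none. The windows of Pfkfb2 held 1, 4 and 1. Among the 9 other members that were lower with both scalings and have a window, the most in any window was 1 for Hk3, Pfkl, Pfkfb4, Pkm and Taldo1, 2 for Gapdh, and 3 for Hk1, Pfkp and Pfkfb3. RefSeq windows were found for 37 members, all but Slc2a3, and 34 of these (91.9%) held a match in at least 1 window, beside 41.5% of all 27025 genes. By window the share was 81.5% of 54 for the members, 54.5% of 12762 for the other tested genes and 38.6% of all 32851, at a median GC content of 60% in the members and 59.6% in the other tested genes. A match was present for 20 of 22 lower members, 2 of 3 higher members and 11 of 11 tested members that were not called. CACGTG counts as 2 overlapping matches. A match is a string of letters and not a measured binding site.

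All 3 glucose transporters fell in ICAM1high, with both scalings and without overlap between the groups. Slc2a1 encodes GLUT1, the widely expressed basal transporter. It stood at 503, 488, 473 and 530.3 CPM in ICAM1high libraries and at 1459, 1665, 1722 and 1807 CPM in ICAM1low libraries (log2 fold change -1.74 ± 0.14, adjusted p = 1.2e-05). The 4 ICAM1high values lay close together, far below the ICAM1low values. Slc2a3 encodes GLUT3, a high-affinity transporter. Its levels were 61.9, 109, 96.7 and 143 CPM in ICAM1high against 777, 884, 954 and 922 CPM in ICAM1low, the most negative fold change of any member (log2 fold change -3.11 ± 0.25, adjusted p = 1.17e-05, and -2.41 with library totals). Replicate 1 was the lowest of the ICAM1high libraries. Slc2a6 encodes GLUT6, a transporter of intracellular membranes. It had 138, 78.4, 115 and 150.2 CPM in ICAM1high and 618, 406, 559.8 and 674 CPM in ICAM1low (log2 fold change -2.23 ± 0.24, adjusted p = 7.09e-05), with replicate 2 the lowest of both groups.

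Of 10 genes of the preparatory steps, 7 were lower and 3 were not called, beside 19.6% lower of all genes. Hexokinases trap glucose as glucose 6-phosphate. Hk1, the general form, had 162, 173, 168 and 210.5 CPM in ICAM1high and 468, 421, 476 and 539 CPM in ICAM1low (log2 fold change -1.42 ± 0.15, adjusted p = 6.92e-05). Hk3, the form of blood cells, had 145, 107, 144 and 141 CPM in ICAM1high against 457, 303, 365 and 347 CPM in ICAM1low (log2 fold change -1.45 ± 0.17, adjusted p = 0.00015). Neither gene overlapped between the groups, and both were also lower with library totals. Hk2, the inducible hexokinase, behaved otherwise: it averaged 150.3 ± 40.8 CPM in ICAM1high and 205 ± 26.6 CPM in ICAM1low (SD, n = 4 each), with overlapping groups, and its log2 fold change of -0.45 ± 0.21 with TMM (adjusted p = 0.109) was 0.24 with library totals (adjusted p = 0.425).

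Phosphofructokinase makes fructose 1,6-bisphosphate, the committed step of glycolysis. Its platelet-type subunit Pfkp had 217, 274, 313 and 495 CPM in ICAM1high and 1168, 902, 958 and 1064 CPM in ICAM1low (log2 fold change -1.66 ± 0.24, adjusted p = 0.000491). The liver-type subunit Pfkl had 239, 229.8, 209 and 286 CPM in ICAM1high and 454, 532, 471 and 687 CPM in ICAM1low (log2 fold change -1.15 ± 0.18, adjusted p = 0.000631). Every ICAM1high library was below every ICAM1low library for both. The muscle-type Pfkm was near the bottom of the range, at 5.85 ± 1.10 CPM in ICAM1high and 4.80 ± 0.419 CPM in ICAM1low (SD, n = 4 each), and was not called with TMM (log2 fold change 0.28) but higher with library totals (0.97, adjusted p = 0.00385). The opposite-strand gene Senp1, which overlaps Pfkm, held 442% of its counts, and without a stated strand setting reads of both genes may be mixed.

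Fructose 2,6-bisphosphate, the strongest activator of phosphofructokinase, is made and removed by the bifunctional PFKFB enzymes. Pfkfb3, whose kinase activity dominates, had 496, 801, 720.5 and 1189 CPM in ICAM1high and 3478, 2942, 2752 and 2942 CPM in ICAM1low (log2 fold change -1.92 ± 0.25, adjusted p = 0.000226). Pfkfb4 had 95.8, 86.0, 89.2 and 87.6 CPM in ICAM1high and 234, 225, 215 and 227 CPM in ICAM1low (log2 fold change -1.33 ± 0.13, adjusted p = 3.49e-05). Both were lower with both scalings, and every ICAM1high library was below every ICAM1low library. Pfkfb2, a form first described in heart, was higher from low levels, at 3.66, 6.86, 6.81 and 8.62 CPM in ICAM1high and 4.04, 4.34, 2.07 and 1.62 CPM in ICAM1low (log2 fold change 1.10 ± 0.38, adjusted p = 0.0394). The lowest ICAM1high value lay below 2 ICAM1low values, and the call was lost without ICAM1high replicate 2, 3 or 4 or ICAM1low replicate 3 or 4 (log2 fold changes of 0.89 to 1.05). Its opposite-strand neighbour Yod1 held 213% of its counts.

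Further down the preparatory phase, 3 steps were lower with TMM, RLE and upper-quartile scaling and not called with library totals. Gpi1, glucose 6-phosphate isomerase, had 563, 441, 379 and 509 CPM in ICAM1high and 490.2, 903, 579.8 and 1528 CPM in ICAM1low (log2 fold change -0.89 ± 0.32, adjusted p = 0.0482). Aldoa, the main aldolase, had 1962, 1266, 1079.6 and 1368 CPM in ICAM1high and 1782, 2884, 2469 and 5234 CPM in ICAM1low (log2 fold change -1.12 ± 0.32, adjusted p = 0.0164). Tpi1, triose phosphate isomerase, had 761, 621, 518 and 656 CPM in ICAM1high and 793, 1328, 1037 and 2339 CPM in ICAM1low (log2 fold change -1.10 ± 0.30, adjusted p = 0.0138). ICAM1low replicate 4 was the highest library for each of the 3 and ICAM1low replicate 1 the lowest of its group. That lowest value lay inside the ICAM1high range for Gpi1 and Aldoa, whose groups overlapped, and just above that range for Tpi1. With library totals the log2 fold changes were -0.18 for Gpi1, -0.42 for Aldoa and -0.40 for Tpi1, and none was called. Without ICAM1low replicate 4 they were -0.48 for Gpi1 (adjusted p = 0.113), -0.75 for Aldoa (adjusted p = 0.0254) and -0.72 for Tpi1 (adjusted p = 0.0159). The Gpi1 call was also lost without ICAM1high replicate 2, 3 or 4 or ICAM1low replicate 2 (-0.95 to -0.82), and that of Aldoa without ICAM1high replicate 2 (-1.10) or 3 (-1.04). Aldoc, the brain-type aldolase, averaged 22.4 ± 3.25 CPM in ICAM1high and 32.6 ± 14.3 CPM in ICAM1low (SD, n = 4 each) and was not called, at -0.54 with TMM and 0.15 with library totals.

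In the energy-yielding phase of glycolysis 6 of 7 members were lower (19.6% of all genes were) and 1, Eno2, was higher (22.6% were). Gapdh, which oxidises glyceraldehyde 3-phosphate, had 57.3, 65.4, 73.6 and 109.7 CPM in ICAM1high and 255, 234, 208 and 1339 CPM in ICAM1low (log2 fold change -2.74 ± 0.60, adjusted p = 0.00465). A single library, ICAM1low replicate 4, had 5.76 times the mean of the other 3 ICAM1low libraries. Without it the log2 fold change of Gapdh was -1.61 (adjusted p = 0.000315), and the call stood with library totals too (-1.96 with all libraries, adjusted p = 0.00951). Pgk1, phosphoglycerate kinase, had 578, 516, 439 and 573 CPM in ICAM1high and 814, 1153, 1097 and 1549.7 CPM in ICAM1low (log2 fold change -1.13 ± 0.20, adjusted p = 0.00152). Pgam1, phosphoglycerate mutase, had 457, 484, 429.6 and 528 CPM in ICAM1high and 703, 963, 846 and 885 CPM in ICAM1low (log2 fold change -0.84 ± 0.15, adjusted p = 0.0015). The groups did not overlap for either with TMM, yet neither was called with library totals (-0.43 for Pgk1 and -0.15 for Pgam1).

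Enolase, which makes phosphoenolpyruvate, split by isoform. Eno1, the general form, had 882, 674, 546 and 713 CPM in ICAM1high and 955, 1415, 1183 and 2338 CPM in ICAM1low (log2 fold change -1.06 ± 0.27, adjusted p = 0.00992). Eno2, the neuronal form, ran the other way at far lower levels, with 36.3, 41.3, 41.1 and 37.3 CPM in ICAM1high and 9.61, 14.2, 9.38 and 13.0 CPM in ICAM1low (log2 fold change 1.75 ± 0.18, adjusted p = 6.32e-05). The groups were far apart, and Eno2 was higher with both scalings and in all 21 alternatives fitted. Eno3, the muscle form, averaged 5.94 ± 2.47 CPM in ICAM1high and 10.7 ± 2.43 CPM in ICAM1low (SD, n = 4 each). It was called lower at -0.84 (adjusted p = 0.0436) with TMM but not with library totals (-0.15), and the call was lost without ICAM1high replicate 2, 3 or 4 or any 1 ICAM1low library but replicate 2 (-0.86 to -0.68). For Eno1 the log2 fold change was -0.36 with library totals and was not called. A near-identical gene, Eno1b, held 34.2% of the Eno1 counts and had a log2 fold change of -1.01, so that reads could have been split between them.

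Pkm, pyruvate kinase, which makes pyruvate and ATP, had 2598, 2119, 2091 and 2488 CPM in ICAM1high and 4698, 5289, 5341 and 7147 CPM in ICAM1low (log2 fold change -1.27 ± 0.17, adjusted p = 0.000317). The groups were far apart, and Pkm was lower with library totals as well (-0.58, adjusted p = 0.00444). Counts per gene do not tell its splice forms apart.

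**Figure D2:**
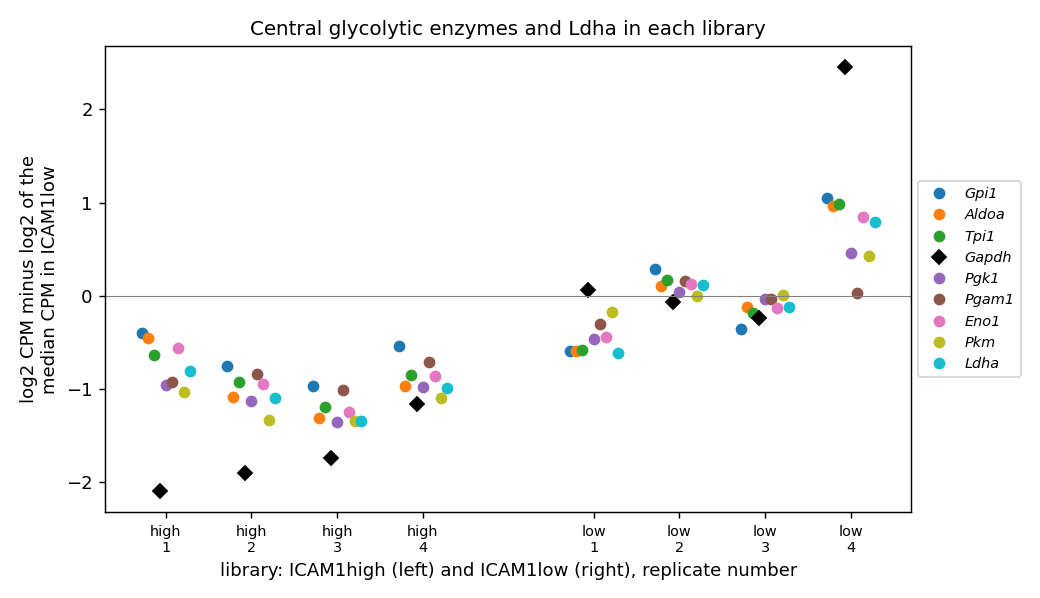
Log2 CPM of 9 central enzymes in each library, less the log2 of each gene's median CPM over the 4 ICAM1low libraries (the 0 line), with ICAM1high on the left and ICAM1low on the right. ICAM1low replicate 4 is above the other ICAM1low libraries for 8 of the 9 genes (all but Pgam1), and its Gapdh value of 1339 CPM lies far above the rest.

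For the 8 central enzymes other than Gapdh, ICAM1low replicate 4 stood at 1.06 to 2.32 times the mean of the other 3 ICAM1low libraries. That library and ICAM1high replicate 1 also had the largest share of counts in genes shorter than 1500 bases, which ran to 12.4% over the ICAM1high libraries (from 7.32%) and to 16.7% over the ICAM1low libraries (from 7.29%). The part of this in the values was not tested. Without both libraries 3 members were higher and 24 lower, Slc16a1 being added (log2 fold change -0.49). Of all 14050 genes tested in that fit 3586 were higher and 3441 lower, beside 3172 and 2748 with all 8 libraries.

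Of the 4 genes of lactate production and transport, 2 were lower, 1 was higher and 1 was not called. Of all genes 19.6% were lower and 22.6% higher. Slc16a3 encodes MCT4, the main lactate exporter of glycolytic cells. It had 639, 512, 562 and 639 CPM in ICAM1high and 2799, 2862, 3706 and 3977 CPM in ICAM1low (log2 fold change -2.50 ± 0.18, adjusted p = 6.39e-06), the smallest adjusted p of any member. The groups were far apart. With library totals the change was -1.81 (adjusted p = 5.65e-06). Ldha, the lactate dehydrogenase subunit that favours lactate formation, had 1199, 982, 826 and 1061 CPM in ICAM1high and 1372, 2272, 1929.9 and 3647 CPM in ICAM1low (log2 fold change -1.18 ± 0.27, adjusted p = 0.00609). ICAM1low replicate 1 was the lowest of its group but above the highest ICAM1high library, and Ldha was not called with library totals (-0.48, adjusted p = 0.107). Ldhb, the subunit that favours lactate use, was higher, with 17.2, 13.0, 10.3 and 10.8 CPM in ICAM1high and 5.94, 4.59, 5.64 and 6.93 CPM in ICAM1low (log2 fold change 1.15 ± 0.23, adjusted p = 0.00309). It did not overlap between the groups and was higher with library totals too (1.84). Slc16a1, which encodes MCT1, averaged 12.1 ± 0.271 CPM in ICAM1high and 14.0 ± 5.56 CPM in ICAM1low (SD, n = 4 each) and was not called, at -0.22 with TMM and 0.43 with library totals.

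**Figure D3:**
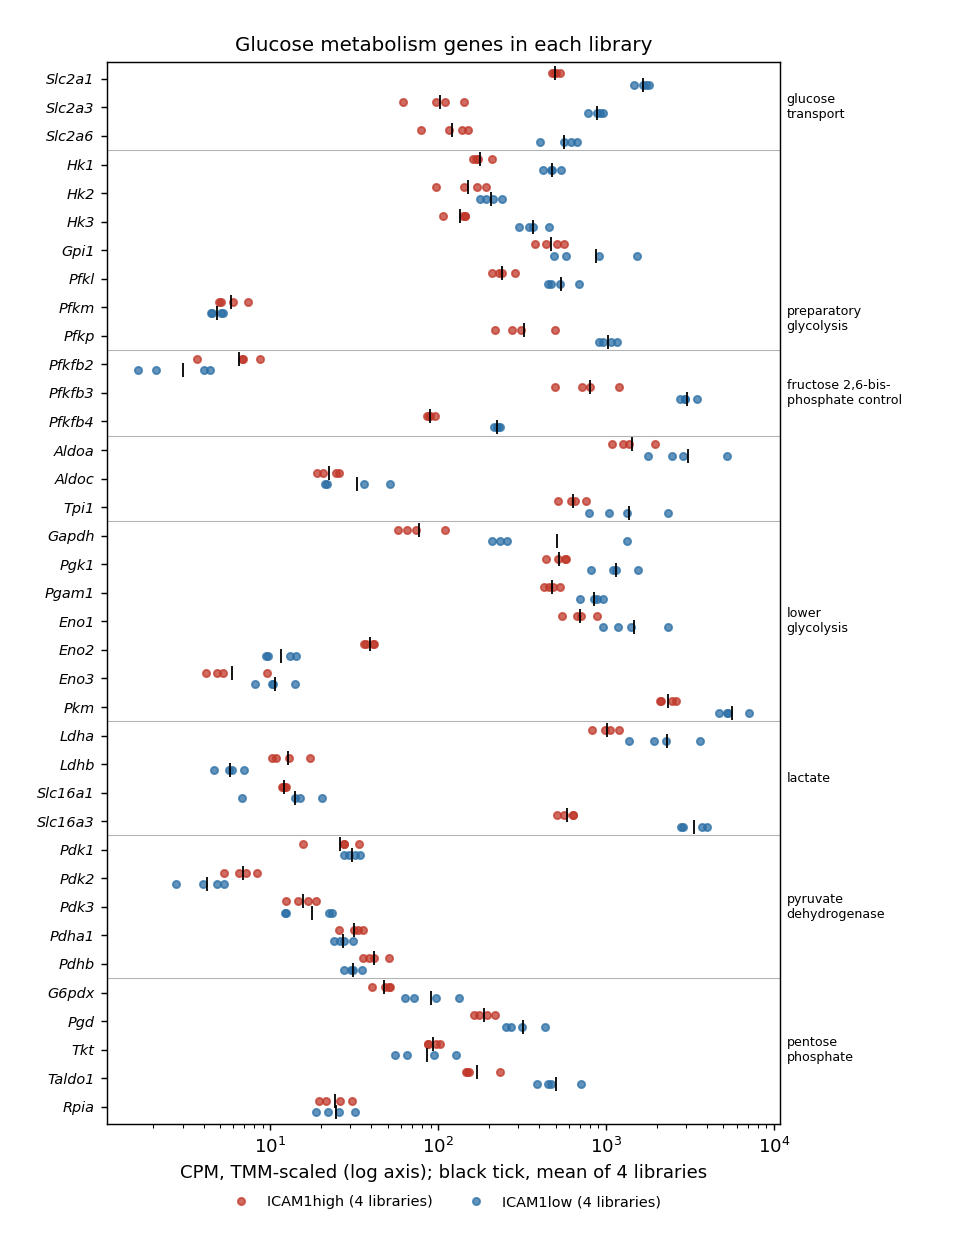
CPM of each of the 37 tested members in every library, on a log axis and TMM-scaled, with ICAM1high above ICAM1low in each row and black ticks for the means of 4 libraries. Slc2a1, Slc2a3, Pfkfb3, Pfkfb4 and Slc16a3 show a wide gap with ICAM1low on the right. Eno2 and Ldhb show a gap with ICAM1high on the right, and the pyruvate dehydrogenase genes lie close together. With library totals the gaps of the named lower genes narrow but remain, while the groups of Tpi1, Pgk1, Pgam1, Eno1, Ldha, G6pdx and Pgd overlap.

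The complex of pyruvate dehydrogenase (PDH) turns pyruvate into acetyl-CoA and is switched off by PDH kinases. Of 5 tested genes of the complex and its kinases edgeR with TMM called 0, while 2 (Pdk2 and Pdhb) had an unadjusted p under 0.05, and DESeq2 and limma-voom each called 1, Pdk2. Pdhb, the E1 beta subunit, had 50.8, 41.2, 38.8 and 35.5 CPM in ICAM1high and 31.2, 35.0, 27.3 and 30.3 CPM in ICAM1low (log2 fold change 0.43 ± 0.16, adjusted p = 0.0535). The kinase gene Pdk2 had 8.31, 7.20, 6.52 and 5.26 CPM in ICAM1high and 3.96, 5.26, 4.77 and 2.75 CPM in ICAM1low (log2 fold change 0.71 ± 0.27, adjusted p = 0.0534). The groups of Pdhb did not overlap but nearly met, at 35.5 CPM as the lowest ICAM1high and 35.0 CPM as the highest ICAM1low value. The lowest ICAM1high and the highest ICAM1low value of Pdk2 were the same to 3 digits. Both genes were called higher with library totals (1.10 for Pdhb and 1.37 for Pdk2), and with a filter of 50 counts in 4 libraries (0.42 for Pdhb and 0.70 for Pdk2), and Pdk2 also without ICAM1low replicate 2 (0.83). Pdha1, the E1 alpha subunit, averaged 31.5 ± 4.20 CPM in ICAM1high and 27.1 ± 2.94 CPM in ICAM1low (SD, n = 4 each), at 0.22 with TMM and 0.90 with library totals, the second called higher; its opposite-strand neighbour Map3k15 held 76.6% of its counts. Pdk1 averaged 26.1 ± 7.49 CPM in ICAM1high and 30.8 ± 2.95 CPM in ICAM1low (SD, n = 4 each), at -0.24 with TMM and 0.45 with library totals. Pdk3 averaged 15.6 ± 2.69 CPM in ICAM1high and 17.6 ± 6.13 CPM in ICAM1low (SD, n = 4 each), at -0.18 with TMM and 0.51 with library totals. Neither kinase was called with either scaling.

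The pentose phosphate genes divided, with 3 of 5 lower and 2 not called, beside 19.6% lower of all genes. G6pdx, glucose 6-phosphate dehydrogenase, takes the first NADPH-forming step. It had 50.8, 48.5, 40.3 and 51.4 CPM in ICAM1high and 71.5, 97.5, 63.0 and 133 CPM in ICAM1low (log2 fold change -0.93 ± 0.23, adjusted p = 0.00831), and the overlapping opposite-strand gene Ikbkg held 55% of its counts. Pgd, which forms the next NADPH, had 218, 176, 163 and 195 CPM in ICAM1high and 254, 314, 272 and 435 CPM in ICAM1low (log2 fold change -0.76 ± 0.19, adjusted p = 0.0098). The groups did not overlap for either gene with TMM, but with library totals the log2 fold changes were -0.24 for G6pdx and -0.067 for Pgd, neither called. In the branch that returns carbon to glycolysis, Taldo1, transaldolase, had 234, 152, 148 and 147 CPM in ICAM1high and 387, 468, 451 and 704 CPM in ICAM1low (log2 fold change -1.56 ± 0.23, adjusted p = 0.000526). It was lower with library totals as well (-0.87, adjusted p = 0.00324). Tkt, transketolase, the partner of Taldo1, had 102, 97.5, 86.6 and 86.4 CPM in ICAM1high and 55.5, 94.5, 65.2 and 127 CPM in ICAM1low, with overlapping groups (log2 fold change 0.12 ± 0.24, adjusted p = 0.714). Rpia, ribose 5-phosphate isomerase, had 30.6, 25.9, 19.5 and 21.4 CPM in ICAM1high and 18.6, 25.7, 22.0 and 31.8 CPM in ICAM1low, also overlapping, at -0.0077 with TMM (adjusted p = 0.98) and 0.68 with library totals. Tkt and Rpia were both called higher with library totals (0.82 for Tkt).

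Per length of transcript (RPKM, the CPM per kilobase of the deposited gene length), the order of the members' levels was similar in the fractions, with some exceptions. Pkm was at 465 ± 51.4 RPKM in ICAM1high and 1123 ± 212 RPKM in ICAM1low, and Aldoa at 487 ± 131 RPKM in ICAM1high and 1062 ± 515 RPKM in ICAM1low (SD, n = 4 each). These genes took the first places in both fractions, in opposite order, and did not differ beyond their spread in either. Ldha had rank 3 in both fractions. Gapdh lay well below its neighbours in the pathway, at 18.5 ± 5.60 RPKM in ICAM1high, rank 20, and 123 ± 134 RPKM in ICAM1low, rank 14. The mouse genome holds many processed copies of Gapdh, and the sources used here do not say how reads that match several places were counted, so its level is uncertain. Slc16a3 was at 111 ± 11.7 RPKM in ICAM1high, rank 9, and at 627 ± 112 RPKM in ICAM1low, rank 4. Slc2a3 was at 14.2 ± 4.64 RPKM in ICAM1high and at 122 ± 10.6 RPKM in ICAM1low, rank 23 of 37 in ICAM1high and rank 15 in ICAM1low. Eno2, at 8.29 ± 0.547 RPKM in ICAM1high and 2.46 ± 0.520 RPKM in ICAM1low, ranked 27 in ICAM1high and 34 in ICAM1low. All members together took 1.30 to 1.63% of all counts in ICAM1high libraries and 2.03 to 2.89% in ICAM1low libraries.

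Shares of an isoform within its family, by counts per kilobase in each library, do not depend on the scaling of libraries. Of 22 shares in 9 families, 9 had groups that did not overlap, each at the smallest p that 4 against 4 libraries allow in an exact two-sided permutation test (0.0286). After adjustment over the 22 shares this p became 0.0698, so 0 of the 22 passed. With 9 shares at the smallest possible p none of them could pass, so this count does not show that shares are equal. Shares of a family also depend on each other, as they add up to the whole. Among the glucose transporters, the Slc2a3 share was 4.38, 8.44, 7.24 and 9.08% in ICAM1high and 15.0, 16.9, 16.5 and 14.9% in ICAM1low (exact permutation p = 0.0286). The Slc2a1 share was 73.6, 77.9, 73.3 and 69.4% in ICAM1high and 58.1, 65.7, 61.6 and 60.5% in ICAM1low (exact permutation p = 0.0286). Slc2a1 thus made up more of the transporter transcripts in every ICAM1high library, and Slc2a3 less. The Slc2a6 share overlapped between the groups.

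Among the enolases, Eno2 took 4.36, 6.40, 7.73 and 5.55% in ICAM1high and 1.10, 1.12, 0.874 and 0.622% in ICAM1low (exact permutation p = 0.0286), and Eno1 made up 91.6 ± 1.35% in ICAM1high and 96.7 ± 0.817% in ICAM1low (SD, n = 4 each). For lactate dehydrogenase, Ldha held 97.1, 97.3, 97.4 and 97.9% in ICAM1high and 99.1, 99.6, 99.4 and 99.6% in ICAM1low (exact permutation p = 0.0286), the rest being Ldhb. For the monocarboxylate transporters, Slc16a1 held 2.25, 2.81, 2.48 and 2.16% in ICAM1high and 0.601, 0.843, 0.482 and 0.203% in ICAM1low (exact permutation p = 0.0286), the rest being Slc16a3. In all 3 families 1 isoform made up at least 89.8% in every library, and Eno2, Ldhb and Slc16a1 took a larger share in every ICAM1high than in any ICAM1low library. The Pfkm share was 2.90 ± 0.798% in ICAM1high and 0.913 ± 0.0963% in ICAM1low, the Pfkfb2 share 0.710 ± 0.101% in ICAM1high and 0.0920 ± 0.0387% in ICAM1low, and the Aldoa share 98.6 ± 0.189% in ICAM1high and 99.0 ± 0.169% in ICAM1low (SD, n = 4 each), none of them overlapping. Among the hexokinases, Hk2 held 21.9, 36.6, 28.7 and 33.9% in ICAM1high and 16.5, 23.3, 16.1 and 17.0% in ICAM1low, with 1 ICAM1low library inside the ICAM1high range (exact permutation p = 0.0571). The shares of the PDH kinases overlapped between the groups.

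**Figure D4:**
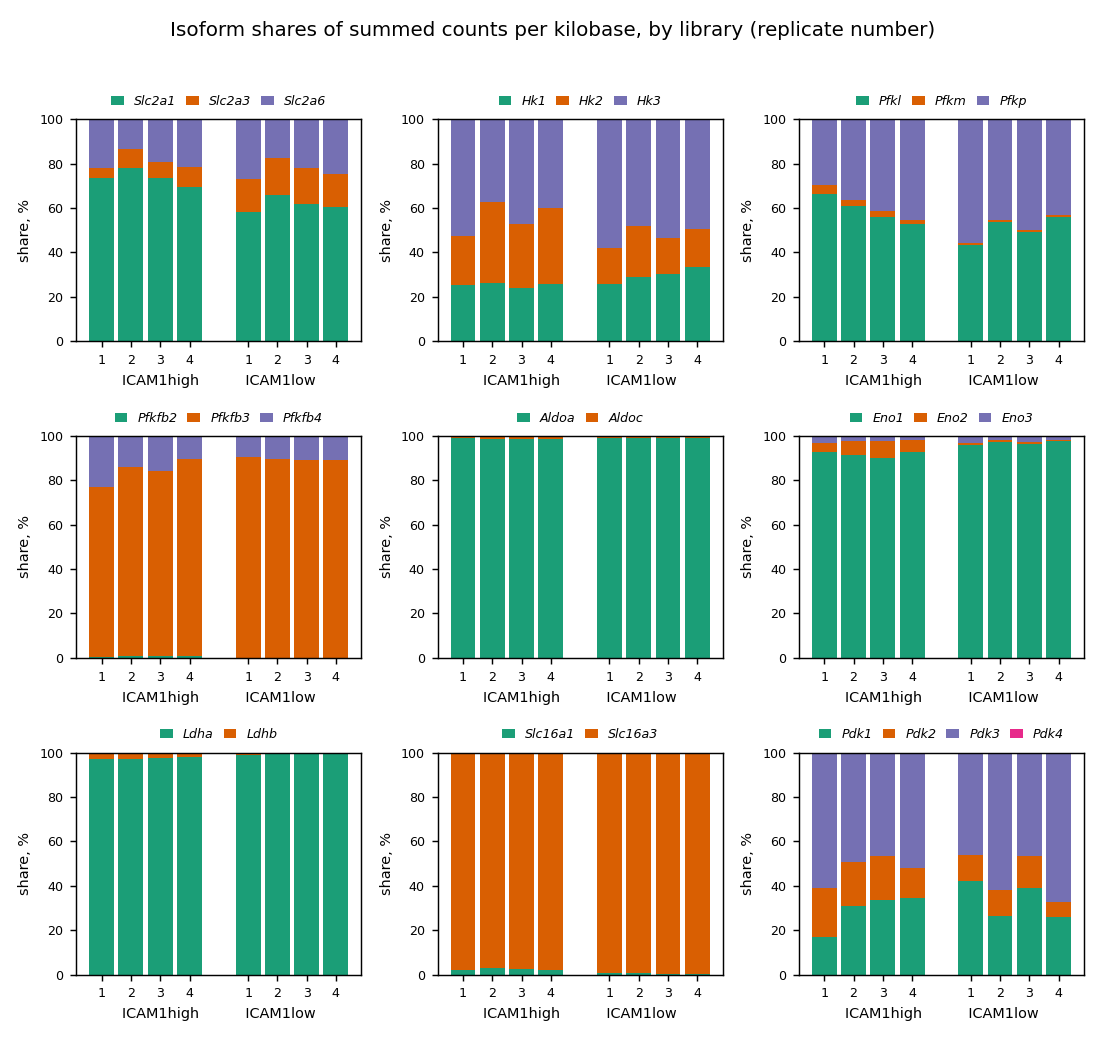
Share of each isoform in its family's summed counts per kilobase, in percent, as stacked bars for every library, ICAM1high replicates 1 to 4 on the left and ICAM1low replicates 1 to 4 on the right of each panel. Slc2a3 takes 4.38 to 9.08% in ICAM1high against 14.9 to 16.9% in ICAM1low, and Eno2 4.36 to 7.73% against 0.622 to 1.12%.

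Of 63 other genes of glucose metabolism, 48 were tested, of which 15 were higher (22.6% of all genes were), 10 lower (19.6% of all genes were) and 23 not called, with a median log2 fold change of 0.39 beside 0.08 for all genes. With library totals 23 were higher (48.5% of all genes were) and 2 lower (5.97%). Glycogen genes went mostly with the members, as 6 of 9 were lower and 1 was higher, against 2 lower and 1 higher with library totals. Pygl, the liver-type glycogen phosphorylase, had 198, 195, 187 and 277 CPM in ICAM1high and 579.8, 599, 579 and 688 CPM in ICAM1low (log2 fold change -1.51 ± 0.17, adjusted p = 8.99e-05). Gyg, the glycogenin that primes glycogen, had 40.8, 29.8, 27.2 and 29.7 CPM in ICAM1high and 61.0, 89.2, 70.3 and 111 CPM in ICAM1low (log2 fold change -1.38 ± 0.22, adjusted p = 0.000712). Pgm1, phosphoglucomutase, averaged 39.0 ± 2.69 CPM in ICAM1high and 83.8 ± 7.29 CPM in ICAM1low (SD, n = 4 each), at -1.10 with TMM (adjusted p = 0.000181) and -0.42 with library totals, the second not called. Pygb, the brain-type phosphorylase, was the higher one, with 29.6, 35.6, 35.1 and 30.7 CPM in ICAM1high and 15.2, 18.3, 16.1 and 10.4 CPM in ICAM1low (log2 fold change 1.13 ± 0.19, adjusted p = 0.00123).

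Some transporter genes that are no members were higher. Slc2a8, a glucose transporter of intracellular membranes, had 13.0, 8.98, 9.41 and 8.77 CPM in ICAM1high and 1.10, 1.96, 2.07 and 2.75 CPM in ICAM1low (log2 fold change 2.34 ± 0.30, adjusted p = 0.000214). Slc2a9, known as a urate transporter, averaged 5.48 ± 0.986 CPM in ICAM1high and 1.08 ± 0.532 CPM in ICAM1low (SD, n = 4 each; log2 fold change 2.33 ± 0.39, adjusted p = 0.00109). Slc16a7, which encodes the monocarboxylate transporter MCT2, had 6.91, 9.41, 9.46 and 8.69 CPM in ICAM1high and 1.17, 0.795, 0 and 0.374 CPM in ICAM1low (log2 fold change 3.90 ± 0.63, adjusted p = 0.000839). Of the 4 monocarboxylate transport genes tested, the other 3 (Bsg, Emb and Slc16a6) were lower with TMM and not called with library totals. Among pentose phosphate genes 2 of 6 were higher and 4 were not called, beside 22.6% higher of all genes. With library totals 5 of 6 were higher, beside 48.5% of all genes. The higher ones were H6pd, the hexose 6-phosphate dehydrogenase of the endoplasmic reticulum, at 27.3 ± 3.81 CPM in ICAM1high and 12.7 ± 1.71 CPM in ICAM1low (SD, n = 4 each; log2 fold change 1.11 ± 0.18, adjusted p = 0.00084), and Prps2, which makes phosphoribosyl pyrophosphate, at 13.5 ± 1.64 CPM in ICAM1high and 3.46 ± 1.02 CPM in ICAM1low (SD, n = 4 each; log2 fold change 1.96 ± 0.26, adjusted p = 0.000258).

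Genes of pyruvate entry and the pyruvate dehydrogenase complex outside the members had 3 higher of 8 and 5 not called, beside 22.6% higher of all genes. With library totals 6 of these 8 were higher, beside 48.5% of all genes. Those of the glycerol phosphate and malate-aspartate shuttles, which carry the electrons of cytosolic NADH into mitochondria, had 3 higher of 7 and 4 not called with either scaling. Of all genes 22.6% were higher with TMM and 48.5% with library totals. Got1, the cytosolic aspartate aminotransferase of the malate-aspartate shuttle, had 41.8, 40.0, 44.9 and 37.1 CPM in ICAM1high and 13.4, 12.8, 15.5 and 14.2 CPM in ICAM1low (log2 fold change 1.55 ± 0.15, adjusted p = 3.55e-05), without overlap. Of 5 tested genes of gluconeogenesis, 2 were higher and 1 was lower, and of 7 other glycolytic isoforms and side steps 1 was higher and 6 were not called, beside 22.6% higher and 19.6% lower of all genes. With library totals 2 of the gluconeogenesis genes were higher and 0 lower, and 3 of the isoforms and side steps were higher. Of all genes 48.5% were then higher and 5.97% lower.

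**Figure D5:**
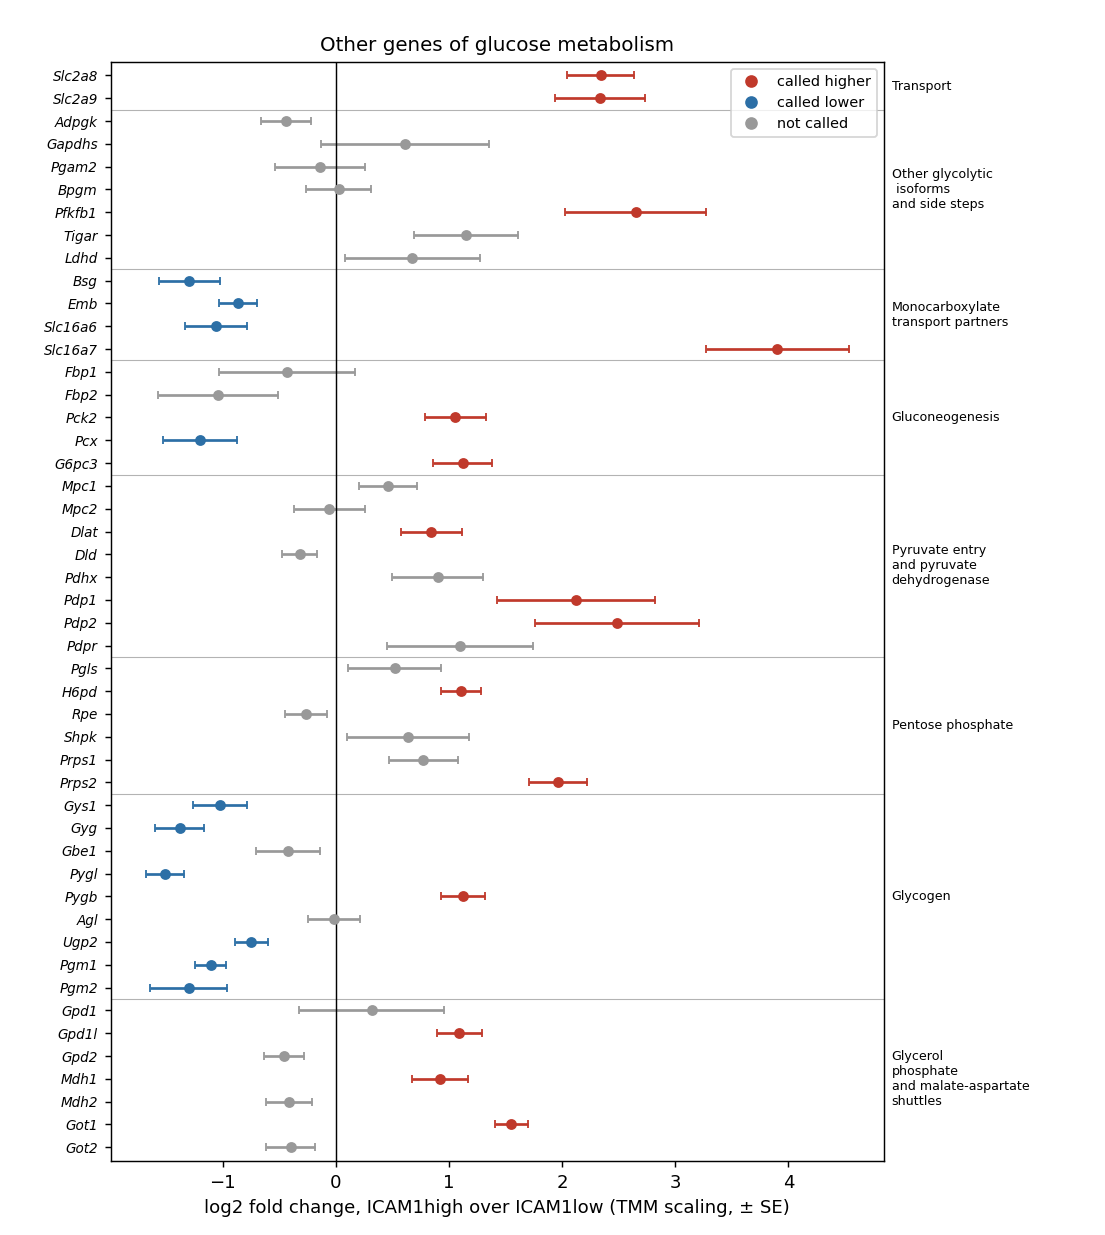
Log2 fold changes, ICAM1high over ICAM1low with TMM scaling and bars of 1 SE, of the 48 tested other genes of glucose metabolism, grouped by role and coloured by call. Most glycogen genes lie left of 0 and both other transporters right of 0; with library totals 23 genes were called higher and 2 lower.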

How the data were processed

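Libraries were made from 100 ng of total RNA with an mRNA library kit, per the labels' protocols. The authors deposited 1 table of raw read counts per gene, with gene lengths in bases as an other quantity, used here for levels per kilobase. HISAT2, a spliced aligner, and the genome mm10 are named in the submitters' processing notes; the sources used here do not give the counting tool, annotation, strand setting or filters.

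The 14051 genes kept by filterByExpr (by group) were scaled by TMM in R 4.3.3 and tested in edgeR 4.0.16 by its quasi-likelihood fit, with Benjamini-Hochberg adjustment over all genes tested and a threshold of 0.05. Each SE is the absolute log2 fold change over the root of its F value. Alternatives included DESeq2 1.42.0, limma-voom (limma 3.58.1), other scalings and filters, a replicate block and left-out libraries. Isoform shares were tested by exact permutation over libraries. The scripts were tested on simulated data.

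Members, lists, tests and the naming rule were chosen with earlier results of these data known. Values per library are given for members called with a log2 fold change of at least 1 in size and for 1 member of each other step. Of the other genes, the 10 with the smallest p at an average log2 CPM of at least 1 are named. Libraries of a group differed well beyond counting error (chi-square over its degrees of freedom, 11.4 to 198), and totals of 10.3 to 22.8 M counts set the precision of low values. The labels call the replicates biological but do not tie each to a mouse of its own; p-values therefore describe the spread between these samples, which may be technical. Promoter windows are RefSeq's on GRCm38.p6.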

Additional observations from a re-analysis of the deposited data

Results flagged for a closer look

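In 7 of 118 sets of 4 values, 1 library lay far from the other 3, with a gap to the nearest above Dixon's 95% critical share of the whole range; chance gives about 1 in 20. For the CPM values these were Hk3 in ICAM1high replicate 2 (106.9 CPM, the others 140.8 to 144.8), Taldo1 in ICAM1high replicate 1 (234.2 CPM, the others 146.6 to 152.5) and Gapdh in ICAM1low replicate 4 (1339 CPM, the others 207.9 to 255.3). Hk3 and Taldo1 stayed below every ICAM1low library all the same. For the isoform shares, all were in ICAM1low: Hk2 in replicate 2 (23.33%, the others 16.09 to 17.02%), Pfkfb3 in replicate 1 (90.46%, the others 89.13 to 89.27%), Pfkfb4 in the same library (9.435%, the others 10.59 to 10.8%), and Pdk4 in replicate 1 (0.5984%, from 3 counts, the others 0%).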

How the results depend on the processing

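Of the members, 12 lower ones (Slc2a1, Slc2a3, Slc2a6, Hk1, Hk3, Pfkl, Pfkp, Pfkfb3, Pfkfb4, Pkm, Slc16a3 and Taldo1) and Eno2 kept direction and call in all 21 alternatives. RLE and upper-quartile scaling changed no member's call. Library totals gave 9 higher and 13 lower members, 23 higher and 2 lower other genes of glucose metabolism, and 6818 higher and 839 lower genes in all. With at least 50 counts in 4 libraries 5 members were higher, Pdk2 and Pdhb being added. Of all 10540 genes tested in that fit 2759 were higher. Replicates 1 and 2 alone gave 2 higher and 13 lower members, 6 lower other genes, and 1708 higher and 1416 lower genes in all. They lost the calls of Gpi1, Pfkfb2, Aldoa, Tpi1, Pgk1, Pgam1, Eno1, Eno3, Ldha, G6pdx and Pgd. Replicates 3 and 4 alone gave 2 higher and 18 lower members, 9 higher other genes, and 1658 higher and 1604 lower genes in all. Here the calls of Gpi1, Tpi1, Gapdh (log2 fold change -3.15), Ldhb (0.69), G6pdx and Pgd were lost. Leaving out 1 library gave 2 to 4 higher and 20 to 23 lower members. Over all genes these fits gave 2345 to 3403 higher and 2157 to 2927 lower. DESeq2 gave no adjusted p for Gapdh. The cause of these differences was not tested.

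Signs changed for members that were not called. With library totals the log2 fold changes were 0.24 for Hk2, 0.15 for Aldoc, 0.435 for Slc16a1, 0.45 for Pdk1, 0.51 for Pdk3 and 0.68 for Rpia. Rpia was also positive with limma-voom (0.0032), without a filter (0.0060), with replicates 1 and 2 alone (0.35) and in some fits without 1 library (-0.17 to 0.14). Replicates 3 and 4 alone gave 0.085 for Slc16a1 and -0.21 for Tkt, and leaving out 1 library gave -0.45 to 0.014 for Slc16a1 and -0.034 to 0.38 for Tkt. By raw counts the difference in the Pdk4 share was 0.0155 points. The count of shares past the threshold was 0 by raw counts, by log2 odds of the shares and with Eno1b added to Eno1. No p was computed for shares with left-out libraries or the replicate block. The smallest p is 0.0286 with 4 against 4 libraries and 0.0571 with 3 against 4. A count of 0 under these limits is no sign that the shares are equal or stable.

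The replicate block left 2 higher and 20 lower members, and 2263 higher and 1975 lower genes in all; the calls of Gpi1 (-0.76), Pfkfb2 (1.14), Aldoa (-1.05) and Eno3 (-0.89) were lost. In the deposited library names each ICAM1high library shares its number with an ICAM1low library. The labels do not say whether such libraries came from the same tumour. Deviations of same-numbered libraries from their group means correlated at -0.658, 0.297, 0.235 and -0.364. With so few libraries, and ICAM1high replicate 1 and ICAM1low replicate 4 apart from their groups, these values cannot decide whether the libraries are paired. The main fit had no block because the labels state no pairing. Adding the Eno1b counts to Eno1, chosen after seeing the data, changed no call of a member.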
